A study of Caenorhabditis elegans with 12 samples.

Results

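Transcripts of whole *C. elegans* hermaphrodites that the study calls germline-deficient were compared with those of animals that have a germline, both on day 1 of adulthood. The comparison rests on 5 of the 12 mRNA-seq samples of the series. There were 2 samples of *glp-4(bn2)* animals and 3 samples of *eri-1(mg366)* animals (the WT of the study). The *bn2* allele is temperature-sensitive, and the study raised these animals at 25 °C with the aim of preventing germ cell production. How many germ cells remained was not measured here. The *eri-1(mg366)* allele makes animals hypersensitive to RNA interference (RNAi) and they carry a germline, so the groups share no mutation. By the methods of the study, *glp-4* animals grew at 25 °C and the others at 15 °C until late L4, although the labels give 15 °C for all. As adults all were at 20 °C, and the medium held FUDR (50 µM), which stops progeny from developing. Strain, larval temperature and loss of the germline therefore differ together and cannot be told apart here. Each sample was made from at least 80 worms. Nothing states that the samples of a group came from separate cultures, so the spread between them may be technical. The p-values rest on this spread within groups over all 12 samples, not on the compared samples alone. Values of the other 7 samples (*glp-4* on days 3 and 7, and *daf-2(e1370); eri-1(mg366)* on day 1) are given only where they place a level.

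The hermaphrodite germline is a line of cells that divide mitotically at the distal end of each gonad arm under Notch signalling from the niche, enter meiosis, and mature first into sperm and then into oocytes. It supplies a large part of the RNA of an adult worm, including maternal transcripts stored for the embryo. Oocytes take up yolk that the intestine makes, and signals from the gonad act on fat metabolism and lifespan. In a whole-animal sample, fewer cells of a type and less RNA per cell cannot be told apart.

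Total counts were 10407141 and 12836836 in the *glp-4* samples and between 15925848 and 22484551 in the *eri-1* samples. At these depths a group with 0 counts in each library lies below 0.322 CPM in *glp-4* and 0.159 CPM in *eri-1* animals (3 counts per library, counting error only). Levels below are TMM-normalized CPM, that is counts per 1000000 counts after edgeR's scaling, unless TPM, which also divides by transcript length, is named. The *glp-4* pair differed more than the *eri-1* samples did, with a chi-square per degree of freedom of 20.5 against 2.95 to 4.88.

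Neither mutation checks the labels by the level of its own transcript. *glp-4*, which encodes a valyl-tRNA synthetase, was at 649 and 825 CPM in *glp-4* animals and at 352, 333 and 348 CPM in *eri-1* animals. The gene was higher by 1.1 on the log2 scale (SE 0.09, adjusted p = 2.91e-09). *eri-1*, an exonuclease gene of the small RNA pathway, was at 7.57 and 6.90 CPM in *glp-4* animals against 25.11, 28.6 and 25.7 CPM, or -1.87 on the log2 scale (SE 0.15, adjusted p = 3.18e-09). Both gene transcripts separated the groups without overlap, and the direction for *glp-4* turned to -0.61 when counts were scaled on muscle genes.

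Of 15610 genes tested with edgeR, 7096 were higher in *glp-4* animals, 45.5% of those tested, and 6238 were lower, 40.0%. With a log2 fold change of at least 2 as well, 3526 were higher (22.6%) and 3413 lower (21.9%). The groups did not overlap for 13999 genes, with *glp-4* above *eri-1* in 47.8% and below in 41.9% of all genes. The level of a gene called in either direction therefore needs reading against a background in which most genes are called. Counts of list members below are likewise to be set against 45.5% higher and 40.0% lower. The median log2 fold change of all genes was 0.28. It lay between -0.04 and 0.63 under the other count-based scalings, and at -0.28 and -0.30 with limma on filtered TPM (13412 genes). Differences of this size therefore have no fixed direction. The muscle sarcomere genes did not shift alike, with log2 fold changes from -0.003 to 4.71 under TMM. When the counts were scaled instead on the median change of these genes, the median of all genes moved by -1.70 to -1.40. Then 2687 genes were higher (17.2%) and 9526 lower (61.0%), which put 22% of the calls upward against 53.2% with TMM. Counts of list members under muscle scaling, also given as relative to muscle, are to be read against these shares. Of the 7096 higher calls 2687 then stayed higher and 1722 became lower, and some genes not called under TMM became lower too. Since this scaling moves all genes downward, it cannot test the lower calls, all 6238 of which stayed lower. Upper-quartile scaling moves genes the other way and gave 7940 higher and 5598 lower. Among the germline genes that were then no longer called lower were *mes-3* (-0.10), *gld-2* (0.13), *par-6* (-0.09), *cyk-1* (-0.15) and *fer-1* (-0.58), which had log2 fold changes between -0.93 and -0.23 under TMM. In the plot of level and fold change, germline genes form a cloud far below the line and cuticle genes one far above it.

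**Figure D1:**
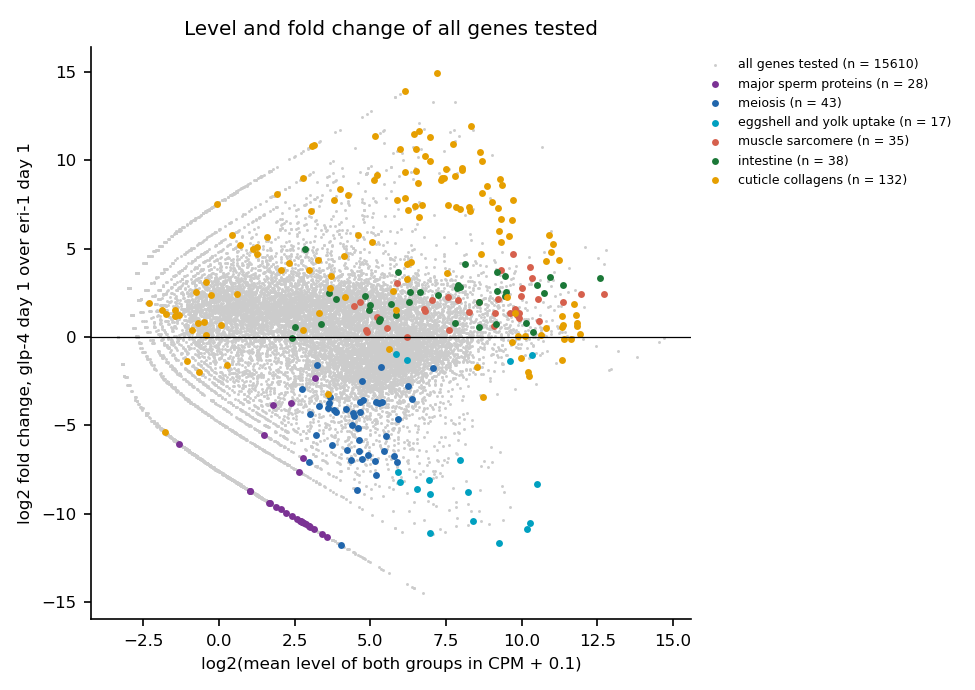
Each point is 1 of the 15610 genes tested, with its mean level over both groups (x axis, log2 of CPM + 0.1) and its log2 fold change in *glp-4* over *eri-1* animals on day 1 (y axis). Colours mark 6 lists of genes. All tested major sperm protein, meiosis and eggshell genes lie below 0, and 37 of 38 intestine and 34 of 35 muscle genes were called higher. For genes with 0 counts in a group the fitted value depends on the prior count. Their direction was fixed by the filter on low counts.

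The genes that hold germline stem cells in mitosis or send them into meiosis were lower almost without exception. Of 20 tested members of this list, 18 were lower, 1 was higher and 1 was not called, with a median log2 fold change of -4.27. Of the lower calls, that of *gld-2* (-0.23) was lost without *glp-4* replicate 1 (-0.17) or *eri-1* replicate 1 (-0.19). The summed level of the list was 289 and 271 TPM in *glp-4* animals and 2629 to 2738 TPM in *eri-1* animals. *gld-1*, which encodes an RNA-binding repressor of translation in the meiotic germline, was at 6.29 and 8.96 CPM against 1059, 991 and 1041 CPM. Its fold change was -7.06 on the log2 scale (SE 0.17, adjusted p = 2.32e-16), and no *glp-4* sample came near an *eri-1* sample. *sygl-1*, a Notch target of the stem cell pool, stood at 1.05 and 1.58 CPM against 88.8 to 101 CPM, and *glp-1*, the Notch receptor of the germline, at 10.7 and 14.6 CPM against 204 to 212 CPM. *fbf-1* and *fbf-2*, closely related Pumilio repressors, had log2 fold changes of -4.52 and -2.86. *atx-2*, the *C. elegans* ataxin-2 gene, was the member called higher, at 0.70, and was lower (-1.0) under muscle scaling. *fog-3* (sperm fate) was under 1 CPM in each of the 5 samples and was not called.

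P granules are the RNA granules of germ cells, and all 28 tested members of the P granule and germ cell fate list were lower, at a median of -6.22. Their sum was 354 and 338 TPM against 4485 to 4865 TPM in *eri-1* animals, a ratio of 13.6 in means. The smallest difference was that of *mes-3*, a Polycomb-type gene, at -0.46, which was not called under upper-quartile scaling. *pgl-1*, a core P granule protein gene, was at 4.54 and 4.93 CPM against 446, 443 and 449 CPM (log2 fold change -6.55, SE 0.12, adjusted p = 2.34e-17). The *glp-4* samples were nearly equal to each other and so were the *eri-1* samples. *meg-4*, which encodes a disordered P granule protein of the embryo, had 0 counts in both *glp-4* samples and 62.8, 62.1 and 57.8 CPM in *eri-1* animals, at least 189-fold lower. Its relative *meg-1* had 2 counts in all in *glp-4* animals against 271, 247 and 282 CPM, a ratio of 2515 (95% counting interval 696 to 20769.9). *mex-1*, a maternal zinc finger gene, was at 0.349 and 0.197 CPM against 449, 464 and 465 CPM, a fold change of -10.70 on the log2 scale. The value of *meg-1* rests on single counts, with fitted fold changes of -14.85 without *glp-4* replicate 1 and -10.12 without replicate 2. *car-1*, an RNA-binding protein gene that also acts in the soma, kept 219 and 189 CPM against 1483 to 1608 CPM.

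All 43 tested genes of the meiotic chromosome axis, pairing and recombination were lower as well (median -4.33, 68.8 and 66.3 TPM against 1558 to 1604 TPM in sum). *him-3*, an axis protein gene, was at 0.349 and 0.296 CPM against 75.3, 72.8 and 70.4 CPM (log2 fold change -7.79, SE 0.24). *spo-11*, which makes the breaks that start recombination, was at 0.349 and 0.296 CPM as well, against 35.6 to 43.3 CPM. The groups were far apart for both genes. *rec-8*, a meiotic cohesin, and *rad-51*, the strand exchange recombinase, kept more RNA, with 5.71 and 5.12 CPM and with 6.75 and 5.42 CPM against 69.3 to 76.2 CPM and 75.5 to 77.5 CPM.

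Genes of DNA replication and cell division followed the same direction. All 36 tested replication genes were lower (median -3.95), as were 70 of 71 cell division and kinetochore genes (median -3.83). *mcm-2*, a helicase subunit, was at 18.7 and 13.5 CPM against 454, 485 and 459 CPM (-4.86, SE 0.13). *cyb-1*, a mitotic cyclin B, was at 8.62 and 7.59 CPM against 461, 472 and 464 CPM (-5.85, SE 0.12). For *rnr-1*, the large subunit of ribonucleotide reductase, the *glp-4* samples were at 93.7 and 63.6 CPM on day 1 and at 13 and 9.72 CPM on day 3, while *eri-1* animals were at 519 to 540 CPM. *fzr-1*, an activator of the anaphase-promoting complex, was the exception at 0.51. It was not called with library totals as the scaling (0.17), nor with limma on TPM, and was lower (-1.20) under muscle scaling.

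Among Argonaute and other small RNA pathway genes of the germline, 30 of 32 were lower, at a median of -2.91. *hrde-1*, the nuclear Argonaute of inherited silencing, was at 12.7 and 9.65 CPM against 480, 472 and 470 CPM (-5.42, SE 0.15). *csr-1*, the Argonaute that acts on germline-expressed genes, was at 83.5 and 99.2 CPM against 466, 427 and 448 CPM (-2.29, SE 0.09), and *prg-1*, the Piwi protein gene, at 98.2 and 98.8 CPM against 277 to 288 CPM (-1.52, SE 0.09). The groups did not overlap for these genes, and the 3 differed in how much RNA remained.

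Oocyte and maternal transcripts were lower with few exceptions. Of 27 tested regulators of oocytes and early embryos, 25 were lower and 2 higher, at a median of -6.37, with sums of 347 and 346 TPM against 6166 to 6552 TPM. *oma-1* and *oma-2*, zinc finger genes needed for oocyte maturation, were at 0.699 and 1.48 CPM and at 0.466 and 0.887 CPM in *glp-4* animals. In *eri-1* animals they were at 437, 410 and 423 CPM and at 624, 637 and 652 CPM, with log2 fold changes of -8.55 and -9.83. *puf-5*, an oocyte Pumilio gene, was at 0.233 and 0.985 CPM against 966, 970 and 993 CPM (-10.56, SE 0.19, adjusted p = 1.57e-17). The few counts of *puf-5* and *oma-1* in *glp-4* animals lay mostly in replicate 2, without which the values were -12 and -9.24, and *puf-5* was at -9.94 without replicate 1. *lin-41*, which acts in oocytes and also in larval timing, kept 42.6 and 39.0 CPM against 451 to 504 CPM. The higher members were *par-1*, a polarity kinase that somatic tissues also use (1.15), and *skn-1*, a transcription factor of embryo and intestine (0.30, within the range over which scalings move the median). *skn-1* was at -0.03 and not called with library totals, and at -0.19 and called lower with limma on TPM. Under muscle scaling both were lower, at -0.56 and -1.40.

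The receptor that brings yolk into oocytes, *rme-2* (chromosome IV, 5470026 to 5473174 in WBcel235), was at 0.466 and 0.296 CPM in *glp-4* animals and at 1225, 1219 and 1224 CPM in *eri-1* animals. The fold change was -11.64 on the log2 scale (SE 0.17, adjusted p = 2.96e-18). All 17 genes of the eggshell, egg surface and yolk uptake list were lower (median -8.29). *cbd-1*, an eggshell chitin-binding protein, was at 9.32 and 9.06 CPM against 2901, 2830 and 2874 CPM, and *cpg-1* and *cpg-2*, chondroitin proteoglycans of the eggshell, had log2 fold changes of -10.88 and -10.53. *egg-1* and *egg-2*, receptor-like proteins of the egg surface needed for fertilization, stood at 655 to 677 CPM and at 248 to 258 CPM in *eri-1* animals and at 0.69 CPM or less in each *glp-4* sample. Without *glp-4* replicate 2 the values of *cpg-2* and *egg-1* were -11.56 and -11.44, the latter against -10.41 with both samples. The permeability barrier genes *perm-2* and *perm-4* stood apart from the rest. They were at 362 and 518 CPM and at 700 and 1003 CPM in *glp-4* animals, against 1089 to 1160 CPM and 1665 to 1765 CPM in *eri-1* animals (-1.36 and -1.01). On day 3 *glp-4* animals had 3686 and 3878 CPM of *perm-2* and 8621 and 8484 CPM of *perm-4*, above all *eri-1* samples.

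By the rule for named genes, other lower genes of the largest change were *mesp-1* (meiotic spindle), *marc-3* (a RING-type ubiquitin ligase), *clec-88* (a C-type lectin), *era-1*, *gln-6* (glutamine synthetase) and *gfat-2* (hexosamine synthesis). *gfat-2* was at 0.582 and 0.591 CPM against 807, 810 and 820 CPM, and *gln-6* at 0.699 and 0.0985 CPM against 573, 607 and 610 CPM. *clec-88* had 3 counts in the *glp-4* group, with a ratio of 2191 (95% counting interval 750 to 10625.7). The same kind of near absence held for *mesp-1*, at 0.116 and 0.0985 CPM against 236, 266 and 253 CPM. *gln-6* was at -10.60 with both *glp-4* samples, -12.44 without replicate 1 and -9.74 without replicate 2.

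Sperm transcripts were lower in 45 of 50 tested members, with a median of -5.90. Without *glp-4* replicate 2, *spe-9* (-1.6), *spe-10* (-1.3), *spe-12* (-1.13) and *fer-1* (-0.55) were not called. In 19 of these genes 1 group was at 0, and with those genes set at their bound the median was -4.10. Those 19 passed the filter on low counts through other samples alone, which fixed their direction. The sum of the list was 23.2 and 29.8 TPM against 1118 to 1327 TPM. *ssq-2*, a sperm-specific gene, had 0 counts in both *glp-4* samples and 45.4, 61.4 and 53.7 CPM in *eri-1* animals, at least 166-fold lower. *gsp-3*, a sperm protein phosphatase, was also at 0, against 8.93, 12.8 and 9.82 CPM (at least 32.6-fold lower), and so was *alg-4*, an Argonaute of spermatogenesis (at least 35.4-fold lower). *spe-26*, an actin-binding protein gene of spermatocytes, was called higher at 0.89 with 6.64 and 6.70 CPM against 3.04 to 4.72 CPM. It was not called with limma on TPM (0.36, pseudocount 1) and was lower (-0.82) under muscle scaling.

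Major sperm proteins move the crawling sperm and signal to oocytes. All 28 tested *msp-* genes, of 31 in the tables, were lower, and 22 of them had 0 counts in both *glp-4* samples. Those 22 passed the filter on low counts through other samples alone, which fixed their direction. The summed level of the family was 18.2 and 17 TPM against 1456 to 1703 TPM, a ratio of 91.0 in means. The median log2 fold change of -10.03 depends on the prior count for the genes at 0, and with these at their bound it was -5.29. *msp-31*, whose gene overlaps *aagr-2*, had the smallest difference, at -2.31. Since the coding sequences of this family are nearly alike, its members share reads and are best read as a sum.

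The early embryo was measured by genes that are first transcribed in the zygote. Of 14 tested, 11 were lower, 1 was higher and 2 were not called (median -6.11, and -3.91 with the 7 genes at 0 set at their bound). Those 7 passed the filter on low counts through other samples alone, which fixed their direction. *pes-10*, one of the first genes transcribed in the embryo, had 0 counts in *glp-4* animals on each day and 10.4, 13.1 and 8.68 CPM in *eri-1* animals, at least 33.3-fold lower. The exception was *nob-1*, a posterior Hox gene that larvae also use, with 39.2 and 29.5 CPM against 4.79, 3.62 and 5.2 CPM (2.90, SE 0.17), which stayed higher under muscle scaling.

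Germ cells and the sheath cells of the gonad are coupled by gap junctions, whose innexins belong to different cells. The germ cell innexins *inx-14*, *inx-21* and *inx-22* had log2 fold changes of -7.89, -6.6 and -7.59, and summed to 0.547 and 1.01 TPM against 199 to 211 TPM. Of their partners in the sheath, *inx-8* was at 77.3 and 106 CPM against 107, 98.5 and 102 CPM and *inx-9* at 22.47 and 34.6 CPM against 28.98, 24.2 and 24.8 CPM. The groups overlapped for both sheath innexins, with log2 fold changes of -0.15 and 0.14 that did not pass the test (adjusted p = 0.191 and 0.351 from edgeR), and both were lower under muscle scaling (-1.86 and -1.57). The calls of these sheath genes turned on single samples, since *inx-8* was lower without *glp-4* replicate 2 (-0.42) and *inx-9* higher without replicate 1 (0.41). *inx-8* was also lower with DESeq2 (-0.41). *inx-21* had counts in replicate 2 alone, without which its fitted value was -11.51, and was at -5.73 without replicate 1.

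**Figure D2:**
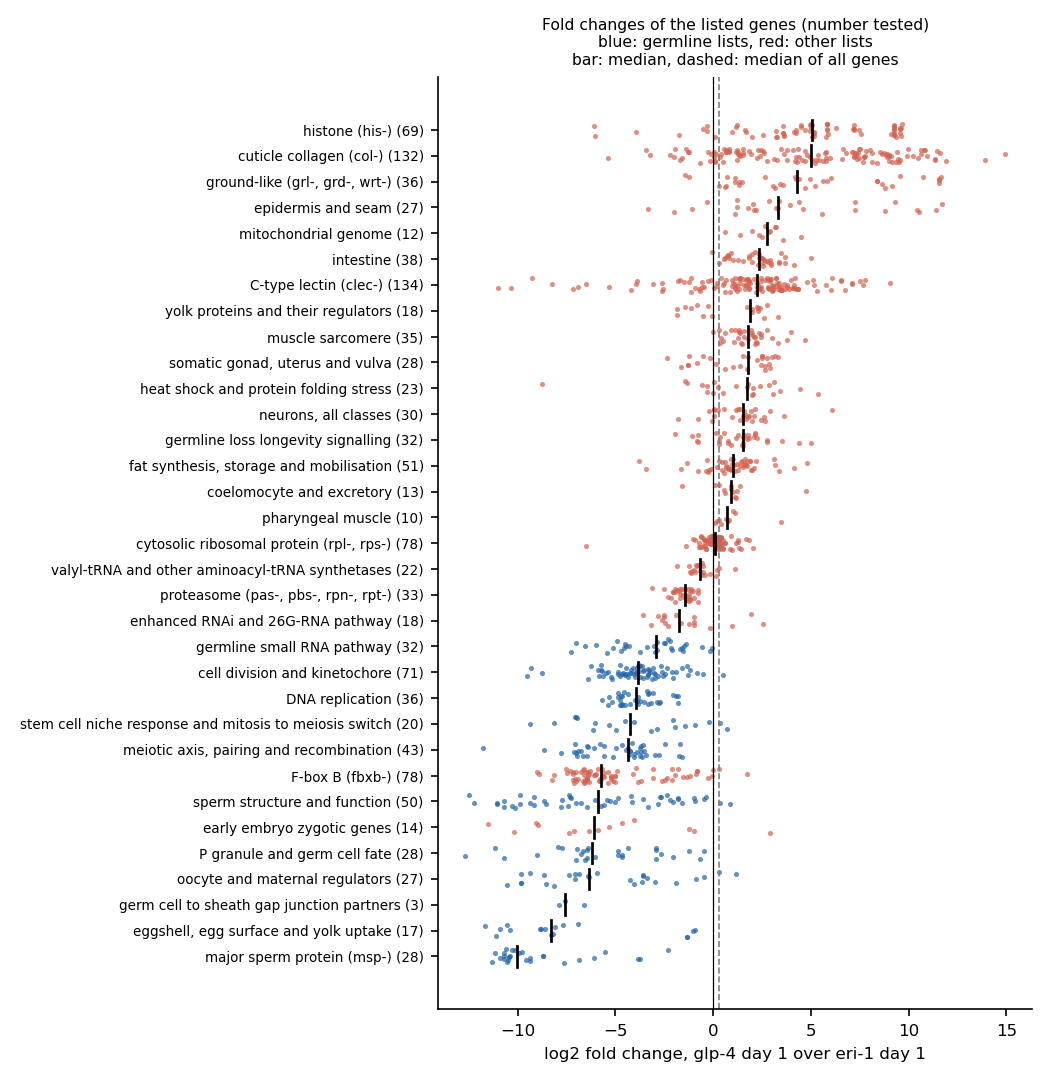
Each point is a tested gene of a list (y axis, number tested in brackets) at its log2 fold change in *glp-4* over *eri-1* animals (x axis). Bars are medians and the dashed line is the median of all genes, 0.28. Germline lists have medians from -10.03 to -2.91, and the muscle, intestine and epidermis lists have medians of 1.78, 2.35 and 3.30.

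Germline transcripts made up a larger share of the RNA in *glp-4* animals on day 7 than on day 1. The P granule list amounted to 7.36% of its *eri-1* level on day 1, 8.17% on day 3 and 13.2% on day 7, and the meiosis list to 4.28%, 7.16% and 19.3%. The germ cell innexins went from 0.381% over 1.56% to 6.61%. These are ratios of summed TPM of *glp-4* samples at 3 ages to *eri-1* samples of day 1, so age differs as well. *him-3* showed this in single samples, with 0.349 and 0.296 CPM on day 1, 3.56 and 6.1 CPM on day 3 and 16.9 and 15.5 CPM on day 7. Replication genes did not follow this order, at 4.99%, 3.42% and 7.67%. On day 3 the P granule sums of 416 and 352 TPM overlapped those of day 1 (354 and 338 TPM). The stem cell list (321 and 263 against 289 and 271 TPM) and the oocyte list (378 and 337 against 347 and 346 TPM) overlapped likewise. In *daf-2; eri-1* animals, which have a germline, the P granule list stood at 90.7% and the sperm list at 195% of the *eri-1* level.

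**Figure D3:**
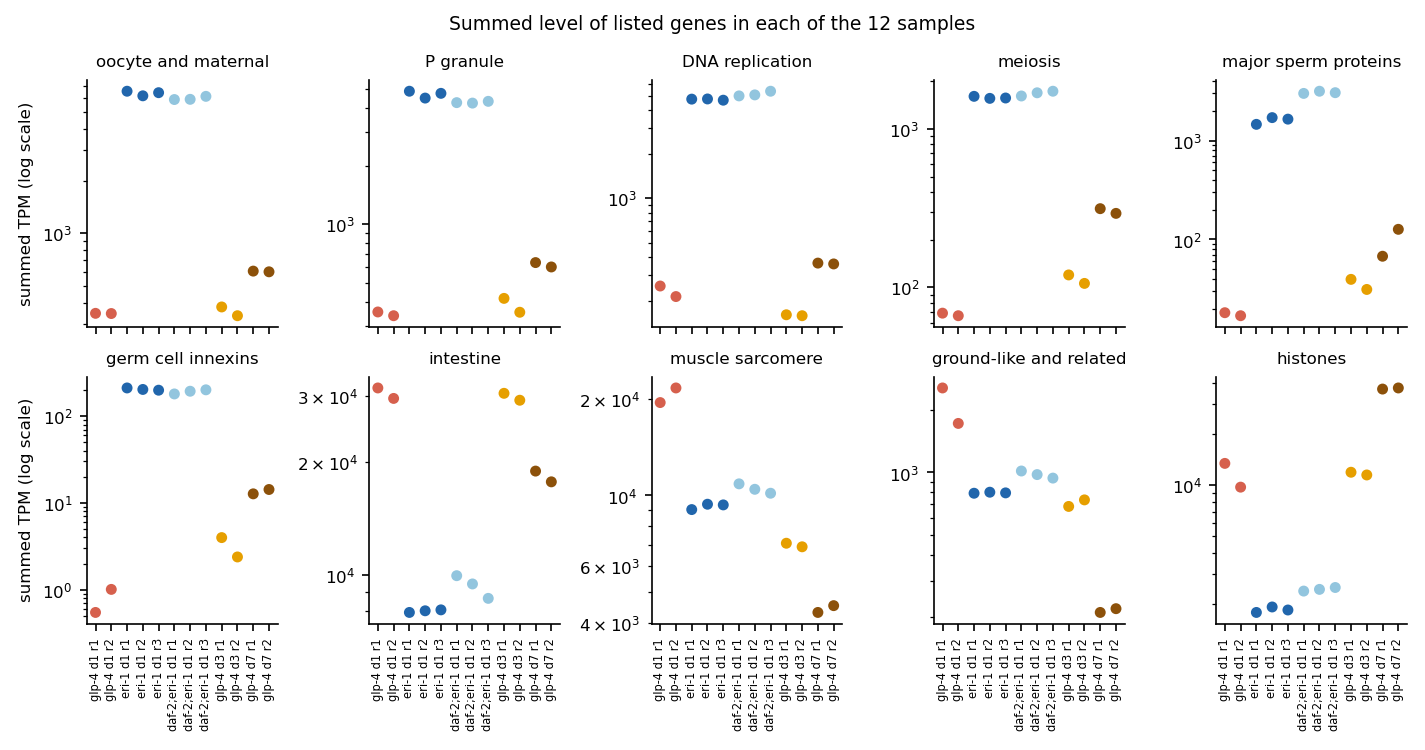
Summed TPM (y axis, log scale) of 10 lists of genes in each of the 12 samples (x axis; d is day of adulthood and r the replicate). The *glp-4* day 1 samples lie far below the *eri-1* samples for the 6 germline lists in the panels and above them for intestine, muscle, ground-like and histone genes.

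Body wall muscle genes were nearly all higher. Of 35 sarcomere genes, 34 were higher and none lower, at a median of 1.78, with sums of 19532 and 21700 TPM against 9033 to 9388 TPM. *unc-54*, the main myosin heavy chain, was at 10305 and 12360 CPM against 2001, 2063 and 2127 CPM (2.46, SE 0.11, adjusted p = 4.02e-13). *myo-3*, a second myosin heavy chain, was at 1093 and 1290 CPM against 83.7, 88.1 and 91.0 CPM (3.77, SE 0.11). *unc-45*, the myosin chaperone, did not pass the test, with 71.3 and 76.3 CPM against 71.4 to 76.2 CPM; it was lower with DESeq2 (-0.25) and higher with upper-quartile scaling (0.35). These genes defined the muscle scaling, under which 16 were higher and 14 lower.

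The size of the muscle fold changes went with transcript length. *ttn-1*, the titin-like gene with a longest transcript of 45903 bases, was at 1613 and 1640 CPM against 58.5 to 65.5 CPM (4.71), while *mlc-2*, a myosin light chain gene of 641 bases, was at 629 and 680 CPM against 408 to 443 CPM (0.61, and -1.09 under muscle scaling). Spearman's rho between length and fold change was 0.68 across these 35 genes, which share all libraries, and 0.02 across 15606 genes. Of 86 tested genes with transcripts over 8000 bases, 75 were higher and 5 lower, at a median of 2.05. They took 4.17% and 4.62% of the counts in *glp-4* samples and 1.08% to 1.13% in *eri-1* samples. In *daf-2; eri-1* samples the share was 1.19% to 1.25% and in older *glp-4* samples 3.41% to 4.43%. The part of transcript length in the muscle and neuron results, and in the scaling on muscle genes, was not tested.

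**Figure D4:**
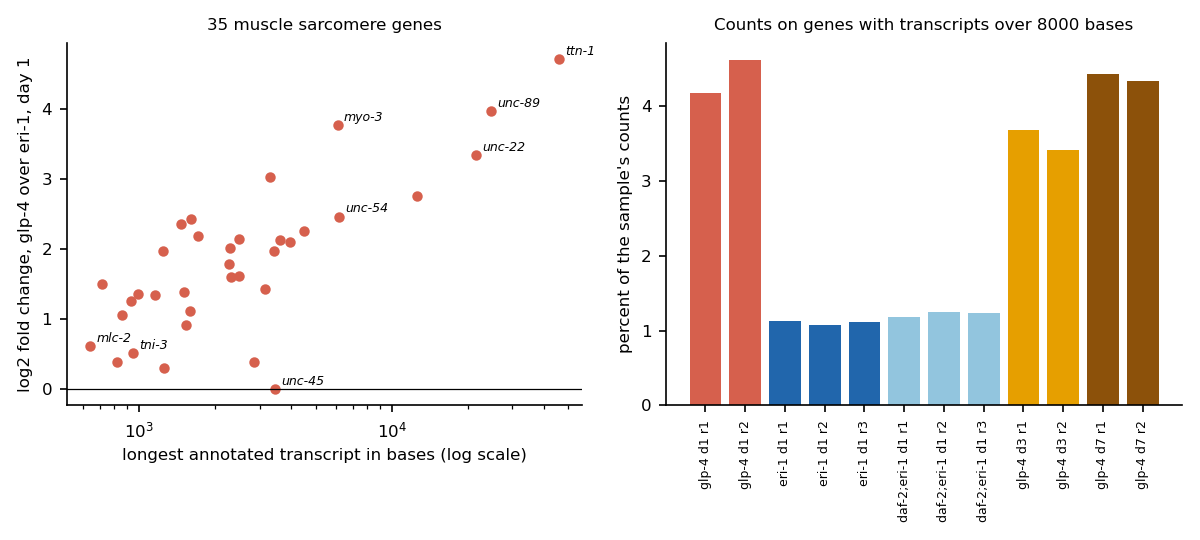
Left, the longest annotated transcript of the 35 muscle sarcomere genes (x axis, bases, log scale) and their log2 fold change (y axis). Right, the percentage of each sample's counts on genes with transcripts over 8000 bases (bars, 1 per sample), which is 4.17 and 4.62 in *glp-4* day 1 samples and at most 1.13 in *eri-1* samples.

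Of 30 genes that all classes of neurons use, 23 were higher, 2 lower and 5 not called (median 1.55). *rab-3*, a synaptic vesicle GTPase gene, was at 26.8 and 25.3 CPM against 4.95, 3.43 and 4.14 CPM (2.63, SE 0.15), and *egl-3*, a neuropeptide convertase, at 206 and 211 CPM against 58.0 to 60.7 CPM (1.81, SE 0.08, and not called under muscle scaling). *snb-1*, synaptobrevin, was at 140 and 132 CPM against 137 to 143 CPM and was not called, but was lower with DESeq2 (-0.30) and higher with upper-quartile scaling (0.31). The largest value was that of *cla-1*, an active zone gene with a transcript of 27002 bases, at 6.09. Under muscle scaling, 8 neuron genes were higher and 13 lower, at a median of -0.15 against -1.40 for all genes.

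Intestinal genes were higher in 37 of 38 tested members (median 2.35), with 31450 and 29496 TPM in sum against 7943 to 8070 TPM. *asp-1*, an aspartic protease, was at 11746 and 10724 CPM against 1016, 1165 and 1115 CPM (3.35, SE 0.12, adjusted p = 2.58e-14). *act-5*, the actin of the microvilli, was at 2607 and 2496 CPM against 308, 332 and 355 CPM (2.94, SE 0.12). *elt-2*, the GATA factor that governs intestinal genes, was at 49.5 and 44.3 CPM against 8.16 to 11.5 CPM (2.30, SE 0.17). Relative to muscle, 23 intestinal genes remained higher and 11 were lower, among the latter *spp-1*, a saposin-like gene, at -0.67.

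The somatic gonad, uterus and vulva were measured by 28 tested genes, of which 19 were higher, 7 lower and 2 not called (median 1.76), and under muscle scaling 12 were higher and 11 lower. *ceh-18*, a POU homeobox gene of sheath cells, was at 45.9 and 51.7 CPM against 5.76 to 7.96 CPM (2.75, SE 0.16), and *lim-7*, another sheath marker, at 11.5 and 10.7 CPM against 3.76 to 4.54 CPM (1.39, SE 0.18, and not called under muscle scaling). *lag-2*, the Notch ligand of the distal tip cell that signals to germline stem cells, was at 1.28 and 1.67 CPM against 2.37, 2.94 and 2.73 CPM, a fold change of -0.84 (SE 0.31, adjusted p = 0.0166). This call was lost without *glp-4* replicate 1 (-0.67, adjusted p = 0.111) and with upper-quartile scaling (-0.49, adjusted p = 0.146). Summed TPM differed little, at 800 and 971 TPM against 698 to 768 TPM. Of 13 coelomocyte and excretory cell genes 11 were higher and 1 lower, but relative to body wall muscle 1 was higher and 11 lower. Of 10 pharyngeal muscle genes 7 were higher and none lower, and relative to body wall muscle 1 was higher and 8 lower.

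Yolk protein genes, which the intestine transcribes, did not share the direction of the intestinal list. Of the vitellogenin genes, *vit-3* and *vit-4* were at 2224 and 4690 CPM and at 1964 and 4544 CPM, against 12131 to 12540 CPM and 11407 to 12005 CPM in *eri-1* animals. On the log2 scale they differed by -1.84 and -1.85, *vit-5* by -1.11 and *vit-1* by -0.53. *vit-2*, at 17324 and 25889 CPM against 24906 to 26508 CPM, and *vit-6*, at 20586 and 31230 CPM against 26561 to 27876 CPM, overlapped between the groups and were not called. The lower *vit-* values were in replicate 1 of the *glp-4* animals in each case. Without replicate 1, *vit-1* was no longer called (-0.17, adjusted p = 0.337), nor was it with upper-quartile scaling (-0.17). Without replicate 2, *vit-2* and *vit-6* were lower (-0.59 and -0.43), as they were with DESeq2 (-0.51 and -0.33), and *vit-3* and *vit-4* were at -2.49 and -2.60. The yolk list, which holds these genes and their regulators, had 10 members higher, 6 lower and 2 not called of 18 (7 higher and 8 lower under muscle scaling). Apart from *vit-* genes, the lower members were *zip-10* (-1.42) and *rict-1* (-0.81), and the 10 higher members included *ceh-60*, a PBC homeobox gene, at 34.5 and 35.9 CPM against 5.43 to 7.22 CPM (2.42, SE 0.18), and *unc-62*, its partner, at 166 and 178 CPM against 39.6 to 45.5 CPM (2.01, SE 0.10). On day 3, *vit-5* reached 98582 and 74399 CPM in *glp-4* animals, above all day 1 samples.

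Fat metabolism genes were higher in 40, lower in 7 and not called in 4 of 51 tested members (median 1.00). Under muscle scaling 5 were higher and 28 lower, at a median of -0.71 against -1.40 for all genes. *acs-2*, an acyl-CoA synthetase of fatty acid oxidation, was at 144 and 146 CPM against 5.05, 5.09 and 5.24 CPM (4.82, SE 0.28) and stayed higher relative to muscle. *fat-6*, a stearoyl-CoA desaturase, was at 573 and 593 CPM against 302 to 308 CPM (0.93, SE 0.09) and was lower relative to muscle. *lbp-9*, a lipid-binding protein gene, was the lowest of the list, at 23.2 and 29.6 CPM against 346, 375 and 379 CPM (-3.79, SE 0.13).

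In genes through which germline loss is known to extend life, 25 of 32 tested were higher and 5 lower (median 1.51). Under muscle scaling 9 were higher and 15 lower (median -0.19, against -1.40 for all genes). *kri-1*, an ankyrin-repeat gene of the intestine, was at 8.97 and 12.4 CPM against 0.736 to 1.18 CPM (3.53, SE 0.29), *daf-12*, the steroid receptor, at 109 and 85.6 CPM against 12.1 to 16.3 CPM (2.73, SE 0.15), and *daf-9*, which makes its ligand, at 5.36 and 8.08 CPM against 0.699 to 1.28 CPM (2.77, SE 0.32). These stayed higher relative to muscle. *mxl-3*, a repressor of lipase genes, was at 286 and 255 CPM against 10.4 to 14 CPM (4.40, SE 0.15), and *hlh-30*, the lysosome and autophagy factor, at 345 and 335 CPM against 68.2 to 75.2 CPM (2.23, SE 0.09). *daf-16*, the FOXO factor, was at 323 and 334 CPM against 105 to 128 CPM (1.48, SE 0.08), and lower (-0.22) relative to muscle. *tcer-1*, a transcription elongation factor that acts with DAF-16, went the other way, at 71.3 and 68.6 CPM against 266 to 273 CPM (-1.95, SE 0.08).

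Heat shock genes did not move as 1 group, with 14 higher (60.9%), 5 lower (21.7%) and 4 not called of 23. Over all genes 45.5% were higher and 40.0% lower. Under muscle scaling 4 of the heat shock genes were higher and 10 lower. *hsp-16.2*, a small heat shock protein gene, was at 103.7 and 78 CPM against 3.66, 1.35 and 1.5 CPM (5.39, SE 0.67, adjusted p = 7.25e-07), and at 5.98 without *eri-1* replicate 1. *sip-1*, a small heat shock protein of oocytes and embryos, was at 3.38 and 3.05 CPM against 1269, 1431 and 1418 CPM (-8.74, SE 0.19). The inducible *hsp-16.2* ranged from 0.511 to 21 CPM over the *daf-2; eri-1* samples, so its level also varied within a group. Larval temperature differed between the compared groups, and its part was not tested.

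Of the 15 named higher genes, most belong to the cuticle and the epidermis that makes it. The cuticle is a collagen coat that is rebuilt at each larval moult, with stage-specific collagens. Of 132 tested *col-* genes, 101 were higher, 12 lower and 19 not called (median 5.03), and 86 were higher under muscle scaling. *col-175* (chromosome X, 9233638 to 9234618 in WBcel235) was at 368 and 215 CPM in *glp-4* animals with 0 counts in the 3 *eri-1* samples, at least 1830-fold higher, and *col-170* at 171 and 111.6 CPM against 0, at least 889-fold higher. The body shape collagens showed the same pattern. *dpy-13* was at 864 and 477 CPM against 0.108, 0.123 and 0.308 CPM (11.71, SE 0.45), *dpy-5* at 608 and 376 CPM against 0.108 to 0.220 CPM (11.39, SE 0.47), and *rol-6* at 155 and 80.3 CPM against 0.044 to 0.123 CPM (10.54, SE 0.39). For each of these genes replicate 1 of the *glp-4* animals was the higher one. Without *eri-1* replicate 3, which held most of its few counts, *dpy-13* was at 12.40.

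Other collagens among the named genes, *sqt-1* and *bli-2*, were at 293 and 142 CPM and at 180 and 82.3 CPM, with at most 0.132 CPM in any *eri-1* sample, and *rol-1* was at 545 and 342 CPM with 2 counts in all in *eri-1* animals, a ratio of 12528 (95% counting interval 3467 to 103467). Hedgehog-related genes of the epidermis moved with them, as 32 of 36 tested ground-like and related genes were higher (median 4.32), and 25 were higher and 5 lower under muscle scaling. *grl-16* was at 479 and 315 CPM against 0.044 to 0.245 CPM (11.56, SE 0.64). *grd-6* was at 126 and 49.6 CPM and *grl-7* at 105 and 54.5 CPM, each with 1 count in the *eri-1* group. *tag-297* was at 221 and 156 CPM against at most 0.264 CPM. Fitted values of such genes moved with single samples. Without *glp-4* replicate 1, *grd-6* was at 10.87 rather than 11.68, *sqt-1* at 11.18 rather than 11.79 and *bli-2* at 9.75 rather than 10.41. Without *eri-1* replicate 2, *grl-16* was at 12.24 and *grl-7* at 13.03, without replicate 3 *rol-1* was at 12.69 and *tag-297* at 10.95, and without replicate 1 *grd-6* was at 13.15.

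Epidermis and seam genes were higher in 22 and lower in 4 of 27 (median 3.30, 3483 and 2437 TPM against 447 to 456 TPM), and in 19 and 5 under muscle scaling. This list holds *dpy-13*, *dpy-5*, *rol-6* and *bli-2*, named above, so it repeats part of that result. Of its sums, *dpy-13* made up 838 and 471 TPM and *dpy-5* 709 and 448 TPM in *glp-4* animals, each at most 0.39 TPM in *eri-1* animals. *qua-1*, a hedgehog-related gene needed for moulting, was at 208 and 134 CPM against 0.858 to 1.37 CPM (7.26, SE 0.21), and *noah-1*, a protein of the pre-cuticle, at 300 and 210 CPM against 15.0 to 18.9 CPM (3.93, SE 0.14). *nhr-23*, a nuclear receptor that drives the moulting cycle and also acts in sperm production, was at 14.2 and 12.7 CPM against 51.6, 51.7 and 57.4 CPM (-2.0, SE 0.14).

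For 3 collagens of the adult cuticle, chosen after their values were seen, the differences were smaller and went in different directions. *col-19* was at 3089 and 3988 CPM against 1500, 1606 and 1598 CPM (1.17), *col-119* at 1103 and 1856 CPM against 3568, 3700 and 3673 CPM (-1.3), and *col-140* at 2579 and 3599 CPM against 3186 to 3368 CPM (-0.09, not called). Without *glp-4* replicate 2, *col-140* was lower (-0.37), as it was with DESeq2 (-0.35). For these collagens replicate 2 was the higher of the *glp-4* samples. Relative to muscle, *col-19* was lower too (-0.53). By day 3 the named cuticle genes were far below their day 1 level in *glp-4* animals, with *col-175* at 0.411 and 0.290 CPM and *dpy-13* at 0.684 and 1.6 CPM. *dpy-5*, at 1.92 and 2.03 CPM on day 3, was still above the *eri-1* samples of day 1 (0.108 to 0.220 CPM). The sum of all *col-* genes went from 172% of the *eri-1* level on day 1 to 44.2% on day 3 and 8.15% on day 7. The epidermis list, which holds *dpy-13* and *dpy-5*, went from 655% of the *eri-1* level on day 1 to 131% on day 3 and 107.5% on day 7. The stage of the animals within day 1 is not stated beyond the age, and its part in the cuticle results was not tested.

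**Figure D5:**
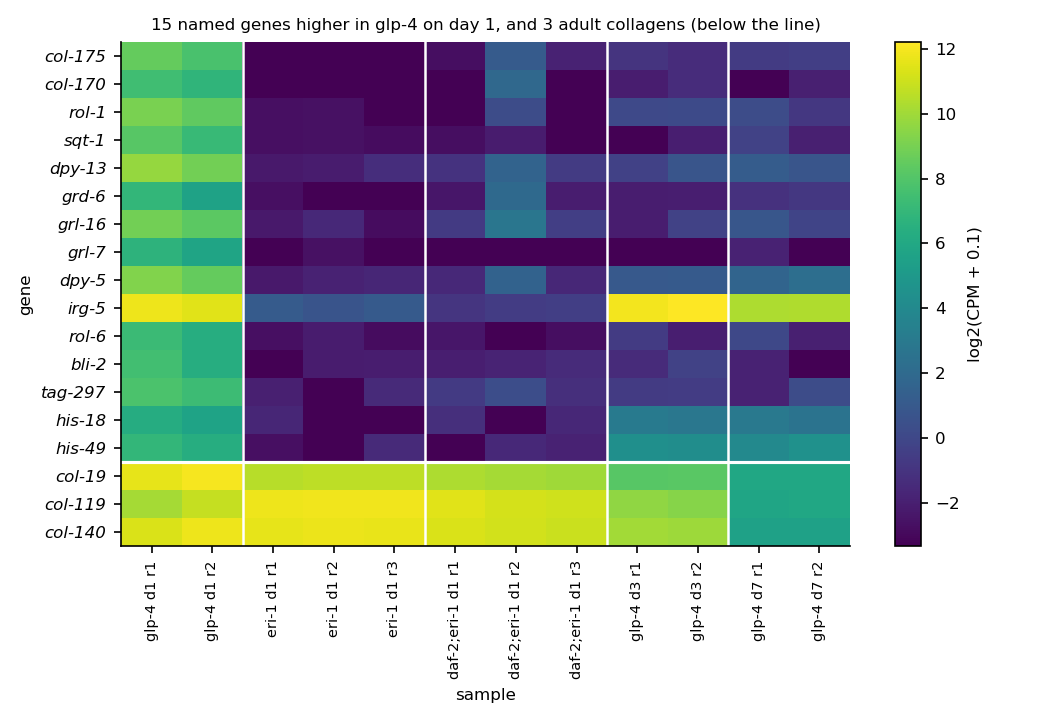
Level of the 15 named higher genes and, below the line, 3 adult collagens (y axis) in each of the 12 samples (x axis; d is day, r is replicate), as log2(CPM + 0.1). The cuticle genes among them are at 49.6 CPM or more in both *glp-4* day 1 samples and at 6.65 CPM or less in the other 10 samples, *irg-5* is high in all *glp-4* samples, and *col-19*, *col-119* and *col-140* are high in all day 1 samples.

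*irg-5* (chromosome V, 13737010 to 13738474 in WBcel235), an infection response gene of the intestine, was at 3627 and 2851 CPM in *glp-4* animals against 2.1, 1.53 and 1.98 CPM (10.74, SE 0.16, adjusted p = 3.29e-18). On day 3 it was at 3851 and 4701 CPM, on day 7 at 1254 and 1294 CPM, and in *daf-2; eri-1* animals at 0.429 to 0.650 CPM. Defence families were mostly higher, with 96 of 134 tested C-type lectin genes (71.6%), 10 of 11 lysozyme genes (90.9%) and 16 of 25 saposin-like genes (64%). Over all genes 45.5% were higher. Under muscle scaling the lectins had 53 higher and 42 lower, the lysozymes 3 and 5, and the saposin-like genes 11 and 9. Their medians were then 0.55, -0.26 and 0.50, against -1.40 for all genes. The bacteria given to each group were not compared here.

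Histone genes were higher in 60 of 69 tested members, with sums of 13416 and 9730 TPM against 1788 to 1926 TPM, and in 53 under muscle scaling. Of all 72 histone genes, tested or not, 33 share their exact counts with another gene, so single members are uncertain. *his-18* was at 77.5 and 50.8 CPM against 0.215, 0 and 0 CPM, and *his-49* at 125 and 81.2 CPM against 0.0538, 0 and 0.264 CPM. Their fitted values were 9.67 and 9.62, and rested on few *eri-1* counts: without *eri-1* replicate 1 *his-18* was at 12.70 and without replicate 3 at 9.01, and *his-49* was at 11.38 without replicate 3. *his-74*, a histone H3 variant gene, went the other way, at 2.1 and 2.36 CPM against 145, 150 and 149 CPM (-6.04, SE 0.14). The histone sum stood at 624% of the *eri-1* level on day 1 and 1991% on day 7. Replication-dependent histone transcripts mostly lack a poly(A) tail, and how many of them a library holds depends on the selection of RNA, whose part was not tested.

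Genes of protein synthesis and turnover split. Cytosolic ribosomal protein genes had a median of 0.12 with 30 higher (38.5%) and 23 lower (29.5%) of 78. Both shares were below those over all genes (45.5% and 40.0%). Under muscle scaling 73 were lower. Within this family *rpl-11.1* was at 14 and 13.9 CPM against 1187, 1281 and 1259 CPM (-6.48, SE 0.11), while its paralog *rpl-11.2* was at 748 and 732 CPM against 281, 318 and 314 CPM (1.28, SE 0.08, and -0.42 under muscle scaling). All 33 proteasome genes were lower (median -1.45, 2417 and 2257 TPM against 8365 to 8469 TPM). Mitochondrial ribosomal protein genes were lower in 49 and higher in 5 of 70, and aminoacyl-tRNA synthetases, the enzyme class of GLP-4, lower in 17 and higher in 3 of 22. All 12 tested genes of the mitochondrial genome were higher (median 2.75), and 9 were higher and 2 lower under muscle scaling. The member with the smallest difference, WBGene00010965 (0.62), was not called with DESeq2 (0.37), with library totals (0.28), or without *glp-4* replicate 1 (0.65) or replicate 2 (0.55). The others included *COX3*, a cytochrome oxidase subunit, at 3754 and 3311 CPM against 574, 393 and 490 CPM (2.86, SE 0.12).

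The strains also differ in RNAi. Of 18 genes of the enhanced RNAi and 26G-RNA pathway, in which ERI-1 acts, 14 were lower and 3 higher (median -1.76). *ergo-1*, the Argonaute that binds 26G-RNAs in oocytes and embryos, was at 61.0 and 60.6 CPM against 342, 345 and 333 CPM (-2.48, SE 0.08), and *rrf-3*, the polymerase of the pathway, at 14.2 and 13.3 CPM against 72.5 to 84.6 CPM (-2.51, SE 0.16). *rde-4* and *dcr-1*, which process double-stranded RNA, had log2 fold changes of -2.61 and -1.65. The *eri-1* mutation and the germline differ between these groups at once, so their parts cannot be told apart. Of 6 tested targets of ERGO-1-bound 26G-RNAs, 3 were higher and 2 lower.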

How the data were processed

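The mRNA of whole worms was sequenced by the authors as 50-base single-end reads from an unstranded kit and processed with their Cactus pipeline. The submitters' processing notes also name kallisto, edgeR and WBcel235. The deposited tables hold estimated counts, which the authors rounded and left unnormalized, and the authors' TPM, of which each sample sums to about 1000000. Both hold 19997 genes. Positions and transcript lengths come from Ensembl release 115. Genes that overlap on the other strand cannot be told apart in unstranded data, and 114 genes share their exact counts with another.

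Counts were analysed with edgeR 4.0.16 in R 4.3.3: filterByExpr (minimum count 10, minimum total 15), TMM, and a quasi-likelihood fit of all 12 samples with 5 group means, tested for *glp-4* against *eri-1* on day 1. Adjusted p-values are Benjamini-Hochberg over the 15610 genes tested, and a gene was called under 0.05. The filter drew on all 12 samples, so a gene with 0 counts in a compared group was tested only through other samples. The direction of such a gene was fixed by the filter. The methods of the study describe 3 samples per group, but the series holds 2 *glp-4* samples per age, and none was set aside. Tables were joined with pandas 2.3.3. Log2 fold changes were computed here from the deposited counts. The SE given with a fold change is its size divided by the square root of edgeR's F statistic. The SE and the p-values draw on the fit of all 12 samples, so neither measures the spread of the compared samples alone. Lists (25, with 722 symbols of which 21 matched no gene) and 24 gene families are described by counts and medians without a test of the list. They and the alternatives were chosen with earlier results of these data known.

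Named genes were, in each direction, the 15 with the largest fold change among called genes whose groups did not overlap, with a symbol of letters and a number, a mean of at least 50 CPM in the higher group and at most 2 per symbol prefix, besides *glp-4*, *eri-1* and the members of lists and families. The alternatives were DESeq2 1.42.0 and its size factors, upper-quartile scaling, library totals, scaling on muscle genes, limma 3.58.1 on log2(TPM + 1) or log2(TPM + 0.1), other filters, only the compared samples, a replicate block, and each sample left out. Same-numbered samples of the groups did not deviate together (r = -0.003 and -0.010). The steps were run on simulated data in which few genes differed, as many up as down. That setting does not bear on the choice of scaling where most genes are called. Counting intervals are at 95% and leave out all error but counting, and PCR copies of 1 molecule count more than once.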

Additional observations from a re-analysis of the deposited data

How the results depend on the processing

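Against 7096 genes higher and 6238 lower, scaling on muscle sarcomere genes gave 2687 higher and 9526 lower, and turned *glp-4* itself to -0.61. A filter of 10 counts in every sample gave 5126 and 4158, and left 2 of the named genes to test. A minimum log2 fold change of 2 gave 3526 higher and 3413 lower. The other settings stayed within 1.5 times of both counts, among them DESeq2 (6322 and 6636), limma on log2(TPM + 1) (5180 and 6567), library totals (6235 and 6878) and the 5 compared samples alone (6187 and 6483). Leaving out each sample in turn gave 6643 to 6899 higher and 6049 to 6148 lower; where 1 *glp-4* sample remained, it was assumed to vary like the other groups. With the replicate block, 7007 were higher and 6158 lower, and the numbers mark no known pairing. The cause of these shifts was not tested. A gene with 0 counts in both *glp-4* samples can have a level of up to 0.322 CPM (3 counts per library). The planned description of promoter motifs was not run.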

Other observations

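Chromosomes differed in the share of genes called. On the X chromosome 71.8% of 2188 tested genes were higher in *glp-4* animals and 14% lower, with a median log2 fold change of 1.49, whereas on chromosome I 32.7% of 2492 were higher and 54.7% lower, with a median of -0.73. Chromosome V lay between them, at 53.6% and 28.5%. Genes lower by a log2 fold change of 2 or more made up 6.35% of those on X and 30.2% of those on I. With scaling on muscle genes, 27.3% of the X-linked genes were higher and 41% lower.

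Several families not described above were mostly higher. Of 191 tested nuclear hormone receptor genes 144 were higher and 13 lower (median 1.47), of 62 UDP-glucuronosyltransferase genes 49 and 3 (median 1.61), and of 63 neuropeptide-like genes 44 and 2 (median 1.16), with 4776 and 4676 TPM in sum for the last against 1472 to 1599 TPM in *eri-1* animals. Relative to muscle, the medians of these families were -0.21, -0.06 and -0.54, with 30 higher and 72 lower, 18 and 22, and 12 and 31. All genes then had a median of -1.40, with 17.2% higher and 61.0% lower.

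The F-box families were counted as well. Of 78 tested *fbxb-* genes 62 were lower and 1 higher, and 52 had 0 counts in a whole group. The median was -5.74, or -1.47 with those genes at their bound. Of 131 tested *fbxa-* genes 77 were higher (58.8%) and 27 lower (20.6%), at a median of 1.29. Under muscle scaling 29 were higher and 48 lower (median -0.28, against -1.40 for all genes). Skp1-related genes, which encode partners of F-box proteins, were lower in 12 (63.2%) and higher in 5 (26.3%) of 19. Over all genes 40.0% were lower and 45.5% higher. *skr-7* had 0 counts in both *glp-4* samples against 26.3, 34.1 and 24.3 CPM, at least 87.6-fold lower.

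Outside the lists, *gfi-1*, chosen after its values were seen, was at 14130 and 12954 CPM against 458, 416 and 473 CPM (4.91, SE 0.15). *irg-7*, also chosen after its values were seen, was at 12112 and 10467 CPM against 523, 501 and 502 CPM (4.47, SE 0.10). Their longest transcripts are 6633 and 6806 bases.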
